A study of Mus musculus with 6 samples.

Results

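The 4 mouse genes of the IGHV14 family, IGHV14-1, IGHV14-2, IGHV14-3 and IGHV14-4, were followed through 2 immunoglobulin heavy chain (IgH) repertoires. A clonotype is 1 distinct CDR3 nucleotide sequence with its assigned gene segments, and its read count is the number of sequencing reads assembled into it. Members were all clonotypes whose best V hit carried a name starting with IGHV14-. The rule found 572 of the 14575 IgH clonotypes, 323 of 7794 in the iB library and 249 of 6781 in the B6 library, and 4 of the 105 IGHV genes named in either table.

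The iB library came from 1 iB-μMT mouse and the B6 library from 1 C57BL/6 (B6) mouse whose age was not given in the sources used here. The iB-μMT mouse was a μMT recipient of 8 to 10 weeks (Ighm tm1Cgn on a B6 background, a mutation that leaves the animal without B cells of its own). It was irradiated with 5 Gy and given blood progenitors derived from iR9X2 embryonic stem cells, which carry Runx1, Hoxa9 and Lhx2 under doxycycline control in Rosa26 and a GFP cassette in Hipp11, with doxycycline in the drinking water. From each spleen 100000 naïve follicular B cells were sorted (at week 4 of reconstitution in the recipient), and heavy chain transcripts were amplified by 5′ RACE and sequenced. The gate as described did not name GFP. The stem cells were of C57BL/6 background. With 1 library in each group there is no replicate check: every interval below is a 95% interval for counting error over clonotypes and says nothing of the spread between mice, so no test was made. The source of the cells, the host, its treatment and the individual mouse cannot be told apart.

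The iB library held 909806 reads and the B6 library 1383617 reads. IGHV14 clonotypes took 40693 and 52755 of these. Their read counts ran from 1 through a median of 118 to 433 in the iB library and from 1 through a median of 202 to 679 in the B6 library. Reads were PCR copies that carried no molecular identifier, so they do not count molecules, and each clonotype was counted once unless stated. All 318 IGHV14 clonotypes with a constant region hit in the iB library and all 245 in the B6 library had IGHM, as had 7644 of 7650 and 6684 of 6688 IgH clonotypes of any family, and none had IGHD. The gate required surface IgD and IgM together, which this cannot check, since the constant region found depends on the one amplified. The methods name IgG for the heavy chain libraries, and IGHM was what the tables held.

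A heavy chain variable region is built in the bone marrow when RAG joins a D segment to a J segment and then a V segment to that DJ joint. Exonucleases trim the segment ends before ligation, and terminal deoxynucleotidyl transferase adds nucleotides that no germline segment encodes. CDR3, the loop across the joints that contacts antigen, starts at the conserved cysteine encoded near the 3′ end of V and closes at the conserved tryptophan encoded by J. What a V gene lends to CDR3 is therefore the short stretch from its cysteine codon to its last base.

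The IGHV14 genes had 2 such ends. Among clonotypes that kept the whole V end without a mismatch, every one of IGHV14-1 and IGHV14-4 ended alike, every one of IGHV14-2 and IGHV14-3 ended in the other way, and each gene showed 1 end in both libraries. The pair of ends is shown here because it separates the family into classes that differed in V end shortening and IGHD1-1 use, given below. Capitals mark bases given by V.
IGHV14-1 and IGHV14-4: TGTACTACA
IGHV14-2 and IGHV14-3: TGTGCTAGA
The first end translates to CTT and the second to CAR, with the cysteine first.

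The largest clonotype of each gene in each library shows how these ends appear in whole CDR3s. Capitals mark the bases aligned to V, and the lower case bases belong to inserted nucleotides, D and J.
IGHV14-1, iB, 297 reads: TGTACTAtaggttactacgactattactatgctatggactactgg
IGHV14-1, B6, 618 reads: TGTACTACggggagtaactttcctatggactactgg
IGHV14-2, iB, 413 reads: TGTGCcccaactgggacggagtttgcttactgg
IGHV14-2, B6, 679 reads: TGTGCTgcggggtatgccatggactactgg
IGHV14-3, iB, 433 reads: TGTGCTAGgtttgcttactgg
IGHV14-3, B6, 378 reads: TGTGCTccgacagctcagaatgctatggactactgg
IGHV14-4, iB, 348 reads: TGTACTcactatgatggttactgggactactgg
IGHV14-4, B6, 606 reads: TGTACTAgctatgctatggactactgg
None of these 8 kept the whole V end, and 3 had no D hit. The IGHV14-3 clonotype of the iB library was the shortest of them at 7 residues, and V and J bases covered its whole length.

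CDR3 starts were set beside the V assignment, which is no independent check of it. Both ends were read from clonotypes already assigned to these genes, and their bases entered the V score. TGTACTACA opened 97 CDR3s across both libraries, and all 97 had been assigned to IGHV14. TGTGCTAGA opened 196, of which 193 had been assigned to IGHV14 and 3, in the B6 library, to other genes. In the iB library a count of 0 among the 7471 other clonotypes allows a share of up to 0.0402% for the first end. Threonine was the second CDR3 residue in 37 of 40 iB and 44 of 48 B6 clonotypes of IGHV14-1, and in 79 of 80 and 66 of 70 of IGHV14-4. Alanine held that place in 100 of 104 and 80 of 81 clonotypes of IGHV14-2, and in 94 of 99 and 49 of 50 of IGHV14-3.

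Separating the genes from one another rested on smaller differences in alignment score. The second V hit was IGHV14-1 for 249 of 323 members in the iB library and 169 of 249 in the B6 library. These totals include the 40 and 48 members of IGHV14-1 itself, which cannot have it second. They also include 33 and 30 members that listed a single hit. The best hit led the second by a median of 162 score units in the iB library and 121 in the B6 library, at median best scores of 1943 and 1913. Best hits tied in 1 member per library, and 1 B6 member listed a hit outside the family.

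IGHV14 took nearly the same part of both repertoires. The family held 4.14% (3.72 to 4.61) of IgH clonotypes in the iB library and 3.67% (3.25 to 4.15) in the B6 library, a ratio of 1.13 (0.960 to 1.33) whose interval included 1. By reads it held 4.47% and 3.81%, a ratio of 1.17. Of the 15 IGHV families the ratio of IGHV14 was the 4th nearest to 1, where IGHV9 stood at 1.39 (1.23 to 1.57) and IGHV3 at 1.41 (1.22 to 1.63).

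A share depends on what fills the rest of the repertoire, and the IGHV1 family, the largest in B6 mice, stood at a ratio of 0.502. Among clonotypes outside IGHV1 the IGHV14 share was 5.90% (5.31 to 6.56) in the iB library and 9.03% (8.01 to 10.2) in the B6 library, a ratio of 0.654 (0.558 to 0.766). With IGHV2 and IGHV5 also set aside, it was 13.7% and 14.4%, a ratio of 0.952 (0.817 to 1.11). IGHV2 (3.57) and IGHV5 (2.47) were, with IGHV1, the families whose ratios lay farthest from 1 in these data. Setting them aside left families with ratios nearer to 1, so this last ratio was partly fixed by the choice. The interval of the ratio thus included 1 against the whole repertoire, but not against all non-IGHV1 genes together.

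**Figure D1:**
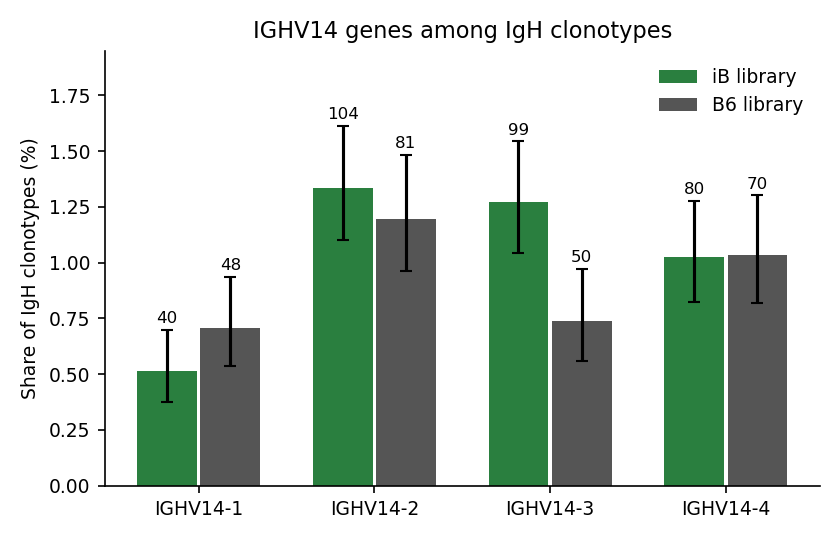
Share of IgH clonotypes (%) with each IGHV14 gene as best V hit, in the iB library (green) and the B6 library (grey). Bars are shares, whiskers are 95% Wilson intervals over clonotypes, and the numbers are clonotypes, with IGHV14-3 the gene whose 2 intervals did not overlap (1.27% against 0.737%).

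The genes did not all hold the same place. IGHV14-3 was assigned to 99 iB clonotypes, 1.27% (1.04 to 1.54) of the library, and to 50 B6 clonotypes, 0.737% (0.560 to 0.971), a ratio of 1.72 (1.23 to 2.42). By reads its ratio was 1.86. It was the one member with separate intervals in the libraries.

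IGHV14-1 was the least used member in both libraries and lay in the other direction. It had 40 iB clonotypes, 0.513% (0.377 to 0.698), and 48 B6 clonotypes, 0.708% (0.534 to 0.937), at a ratio of 0.725 (0.477 to 1.10) whose interval included 1. IGHV14-2, the most used member, had 104 iB clonotypes, 1.33% (1.10 to 1.61), and 81 B6 clonotypes, 1.19% (0.962 to 1.48), at a ratio of 1.12 (0.837 to 1.49). IGHV14-4 had 80 and 70 clonotypes, 1.03% in either library, and its ratio of 0.994 (0.723 to 1.37) was the nearest to 1 of all 77 IGHV genes that had at least 20 clonotypes in the libraries together.

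Within the family the order of use was therefore IGHV14-2, IGHV14-3, IGHV14-4, IGHV14-1 in the iB library and IGHV14-2, IGHV14-4, IGHV14-3, IGHV14-1 in the B6 library. IGHV14-2 made up 32.2% and 32.5% of the family, IGHV14-3 30.7% and 20.1%, IGHV14-4 24.8% and 28.1%, and IGHV14-1 12.4% and 19.3%. In the iB library the intervals of the first 3 genes overlapped and lay above that of IGHV14-1. In the B6 library those of IGHV14-1, IGHV14-3 and IGHV14-4 overlapped.

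A ratio past 1.5-fold was common among V genes. Of the 77 genes, 19 (24.7%) were at least 1.5-fold higher in the iB library, and 1 of the 4 IGHV14 genes, IGHV14-3, was among them. Another 26 (33.8%) were at least 1.5-fold lower, and no IGHV14 gene was among those. Past 2-fold lay 13 genes (16.9%) upward and 17 (22.1%) downward, again without an IGHV14 gene. Within 1.5-fold lay 32 of the 77 genes (41.6%) and 3 of the 4 IGHV14 genes. The median ratio was 1.06 over the IGHV14 genes and 0.921 over all 77. One of 4 is close to the 24.7% of all genes, so the call of IGHV14-3 did not set the family apart.

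In the RefSeq annotation of GRCm38.p6 the genes are V segments on chromosome 12: IGHV14-1 at chr12:113931953-113932246, IGHV14-2 at chr12:113994469-113994898, IGHV14-3 at chr12:114059845-114060273 and IGHV14-4 at chr12:114176438-114176867. The clonotype tables themselves carry no coordinates. Counted from the side of the D segments, they were the genes at rank 22, 26, 28 and 33 of the 105 found, over 244.9 kb in all.

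Genes interleaved with them had similar ratios. RefSeq lists 15 other IGHV genes between the outermost members, 7 of them pseudogenes. Of the 15 genes, 8 were found and 6 had at least 20 clonotypes. Their ratios ran from 0.985 to 1.63 with a median of 1.22. IGHV9-2 (1.63) and IGHV9-3 (1.53) were past 1.5-fold upward and none was past it downward. The 3 with most clonotypes were IGHV9-3 with 450 in the iB and 256 in the B6 library, IGHV9-1 with 86 and 76 at a ratio of 0.985, and IGHV7-3 with 70 and 58 at a ratio of 1.05. RefSeq labels IGHV7-3 a pseudogene.

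**Figure D2:**
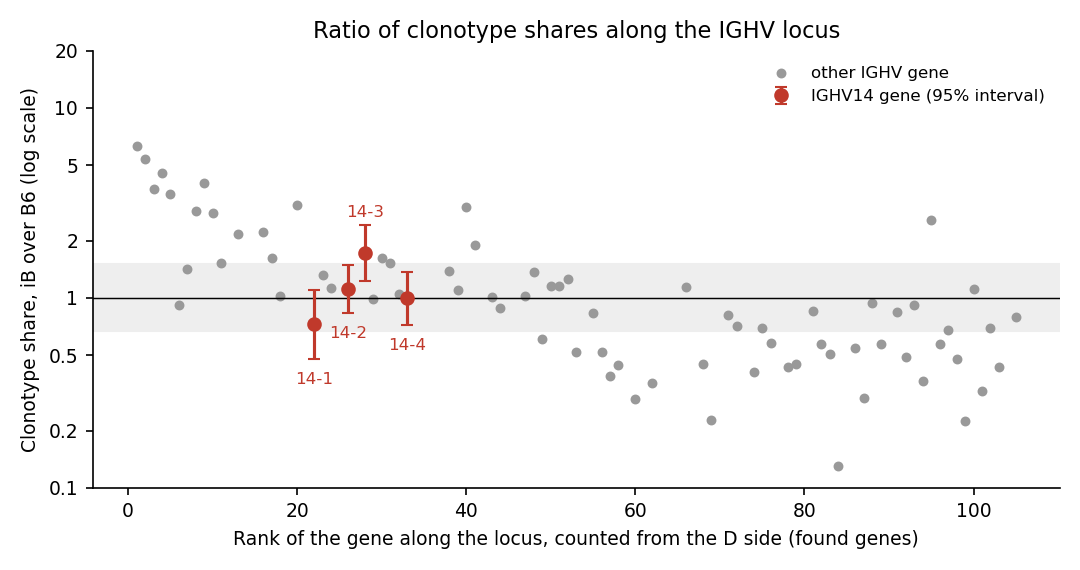
Ratio of clonotype shares, iB over B6, on a log axis for the 77 IGHV genes with at least 20 clonotypes, against the rank of each gene from the D side. Red points with 95% intervals are IGHV14 genes at ranks 22 to 33 and grey points the other genes. The shaded band marks ratios within 1.5-fold, where 3 of the 4 IGHV14 genes lay.

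The clearest feature of IGHV14 joints was a V end that had often lost bases. The aligner counts a base as V as far as it matches the germline, so an inserted base that happens to match is counted as kept. By that measure the V end was shortened in 151 of 323 iB clonotypes, 46.7% (41.4 to 52.2), and in 124 of 249 B6 clonotypes, 49.8% (43.6 to 56.0). Outside the family it was shortened in 25.9% and 28.8%. The ratio of the family to the other clonotypes was 1.81 (1.60 to 2.04) in the iB library and 1.73 (1.52 to 1.97) in the B6 library, so the same difference appeared in both mice.

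All 4 genes lay above the other clonotypes in both libraries, although the B6 intervals of IGHV14-2 and IGHV14-3 met that of the others. IGHV14-1 had a shortened end in 25 of 40 and 30 of 48 clonotypes, which is 62.5% in either library. IGHV14-4 had one in 55.0% and 58.6%, IGHV14-2 in 40.4% and 39.5%, and IGHV14-3 in 40.4% and 42.0%. The genes fell into the same classes as their germline ends: IGHV14-1 and IGHV14-4 together stood at 57.5% and 60.2% and IGHV14-2 and IGHV14-3 at 40.4% and 40.5%, a ratio of 1.42 (1.13 to 1.79) in the iB library and 1.49 (1.15 to 1.92) in the B6 library.

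Every IGHV14 gene gives 9 bases from the cysteine codon on, as many other V genes do. Clonotypes outside the family whose V gene also gives 9 bases had a shortened end in 17.2% and 23.1%, and against them the family's ratios were 2.71 (2.38 to 3.09) and 2.16 (1.89 to 2.47). Against IGHV9, whose genes apart from IGHV9-4 lie among those of IGHV14, they were 1.83 (1.53 to 2.18) and 1.74 (1.43 to 2.12). The feature was not particular to IGHV14, since the IGHV3 family stood at 45.0% and 55.3%, and the ratio of IGHV14 to it was 1.04 (0.889 to 1.21) and 0.900 (0.764 to 1.06). The V genes of IGHV3 clonotypes gave means of 10.7 and 10.8 bases, so that comparison was not matched for the length of the end.

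In bases, IGHV14 clonotypes had lost a mean of 1.14 ± 1.54 (SD, n = 323) in the iB library and 1.31 ± 1.65 (SD, n = 249) in the B6 library. Other clonotypes had lost 0.565 ± 1.20 and 0.670 ± 1.35. The V part of CDR3 was thereby 7.87 and 7.70 bases long in IGHV14, which differed from other clonotypes by -1.13 (-1.31 to -0.963) and -1.09 (-1.30 to -0.882) bases. Some of the other V genes give more than 9 bases.

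**Figure D3:**
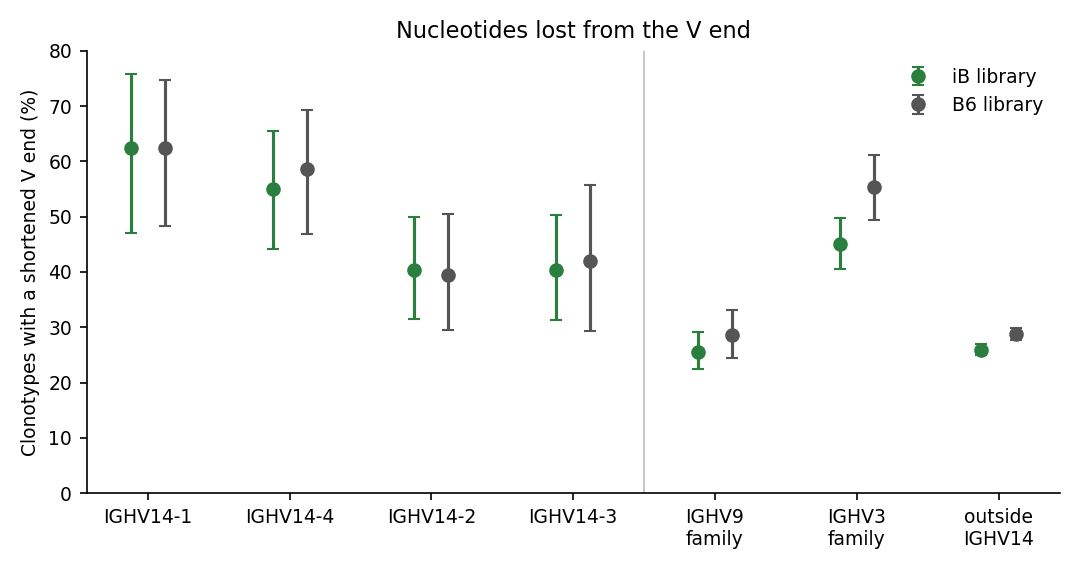
Share of clonotypes (%) whose V end had lost at least 1 base, for each IGHV14 gene, the IGHV9 and IGHV3 families and all clonotypes outside IGHV14, in the iB (green) and B6 (grey) libraries with 95% Wilson intervals. IGHV14-1 and IGHV14-4 lay between 55.0% and 62.5%, IGHV14-2 and IGHV14-3 between 39.5% and 42.0%, and the clonotypes outside the family at 25.9% and 28.8%.

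IGHV14 CDR3s were shorter than those of the other clonotypes pooled. Their mean was 12.98 ± 2.56 residues (SD, n = 323) in the iB library, ranging from 6 to 20, and 13.17 ± 2.64 (SD, n = 249) in the B6 library, ranging from 7 to 21. Other clonotypes averaged 13.62 and 13.98, so IGHV14 was shorter, by differences of -0.647 (-0.932 to -0.363) and -0.816 (-1.15 to -0.481) residues. Among families with at least 50 clonotypes, 11 in the iB and 10 in the B6 library, IGHV14 was the 2nd shortest in both, after IGHV6. The IGHV9 family averaged 13.26 ± 2.44 residues (SD, n = 649) in the iB library, close to IGHV14. In the B6 library it averaged 13.96 ± 2.61 (SD, n = 406). No interval was taken for the difference of IGHV14 from IGHV9.

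CDR3s of 17 residues or more made up 7.12% (4.79 to 10.5) and 10.8% (7.56 to 15.3) of IGHV14 clonotypes against 11.2% and 17.5% of others. Those of 9 or fewer made up 8.98% (6.32 to 12.6) and 7.23% (4.62 to 11.1) against 4.31% and 5.68%. Long loops were thus rarer in both libraries, and short ones more common beyond the interval in the iB library only. Reweighted to the J use of the other clonotypes, the IGHV14 means were 13.10 and 13.22, still below 13.62 and 13.98.

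The extremes among IGHV14 clonotypes show what fills the loop. The shortest member of the iB library and the one shown of the 5 B6 members with 7 residues had no D hit, and the longest member of each library had a whole V end and IGHD1-1 as D hit.
IGHV14-1, iB, 6 residues, 117 reads: TGTACTACtgactactgg
IGHV14-4, B6, 7 residues, 540 reads: TGTACTACAgggacttactgg
IGHV14-2, iB, 20 residues, 1 read: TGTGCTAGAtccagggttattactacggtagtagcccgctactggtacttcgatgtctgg
IGHV14-3, B6, 21 residues, 113 reads: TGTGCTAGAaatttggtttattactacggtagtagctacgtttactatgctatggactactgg
The longest iB member rested on 1 read, with a lowest base quality of 23 in its CDR3 where the other 3 had 38.

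Between the libraries the family's length differed less clearly. The iB minus B6 difference was -0.193 (-0.624 to 0.237) residues in IGHV14 and -0.362 (-0.447 to -0.277) in other clonotypes. The gap in IGHV14 minus that outside was 0.169 (-0.271 to 0.608), so the 2 gaps did not differ beyond counting error. By gene, IGHV14-1 averaged 12.9 residues in the iB and 14.1 in the B6 library, a difference of -1.20 (-2.13 to -0.273). IGHV14-2 averaged 13.1 and 12.6, a difference of 0.482 (-0.290 to 1.25). The difference was -0.851 (-1.78 to 0.0755) in IGHV14-3 and 0.205 (-0.651 to 1.06) in IGHV14-4. Among the genes, only the interval of IGHV14-1 excluded 0.

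**Figure D4:**
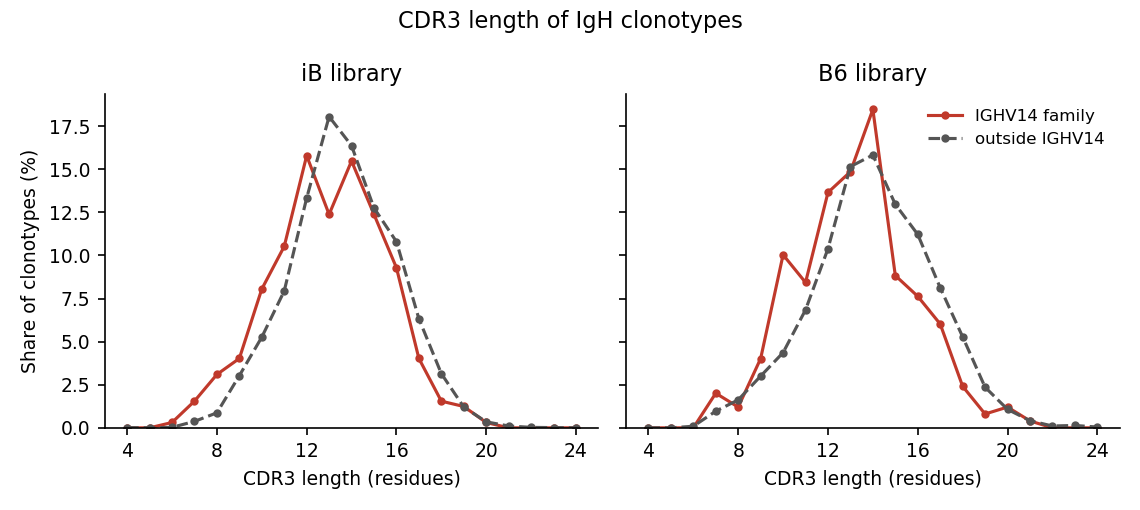
Share of clonotypes (%) at each CDR3 length in residues, for IGHV14 clonotypes (red, solid) and all others (grey, dashed), in the iB library (left) and the B6 library (right). The IGHV14 curves lay mostly to the left of the others in both libraries, with means of 12.98 against 13.62 and 13.17 against 13.98 residues.

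Inserted nucleotides, those between V and D plus those between D and J, were fewer in the iB library for every IGHV14 gene. These counts rest on aligned segment ends, and the placing of the D and J ends was not checked against germline sequences. Aligned parts can overlap, as in the B6 IGHV14-4 clonotype of 7 residues, with 9 bases aligned to V and 20 to J. Over clonotypes with a D hit, the IGHV14 mean was 3.58 ± 3.12 nucleotides (SD, n = 272) in the iB library and 5.81 ± 3.27 (SD, n = 210) in the B6 library, a difference of -2.23 (-2.81 to -1.65). The iB minus B6 difference was -2.07 in IGHV14-1, -2.08 in IGHV14-2, -2.90 in IGHV14-3 and -2.03 in IGHV14-4, and each interval lay below 0. Other clonotypes differed by -2.03 (-2.16 to -1.91), so the shift was not particular to the family, and the gap in IGHV14 minus that outside was -0.196 (-0.786 to 0.395).

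IGHV14 joints also had fewer inserted nucleotides than all other clonotypes pooled within each library, and their mean was the 3rd lowest of 11 families in the iB and the 5th lowest of 10 in the B6 library. The difference from other clonotypes was -0.770 (-1.15 to -0.392) in the iB library and -0.574 (-1.03 to -0.121) in the B6 library. In the iB library it lay at the V to D joint, where IGHV14 averaged 2.28 nucleotides and others 3.15, a difference of -0.879 (-1.14 to -0.619), and not at the D to J joint, at 1.31 and 1.20. In the B6 library the V to D joint averaged 3.70 in IGHV14 and 4.02 in others, a difference of -0.311 (-0.654 to 0.0315), and the D to J joint 2.10 and 2.37, a difference of -0.263 (-0.569 to 0.0433).

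Joints with no inserted nucleotide at all made up 40 of 272 IGHV14 clonotypes in the iB library, 14.7% (10.99 to 19.4), and 3 of 210 in the B6 library, 1.43% (0.487 to 4.12), a ratio of 10.3 (3.23 to 32.8). Over clonotypes with at least 8 nucleotides of D the ratio was 21.6, for which no interval was taken. That filter kept fewer than the 3 B6 clonotypes, since 1 of them, of IGHV14-1, had 6 nucleotides of D. Each gene contributed to the 40, with 5, 12, 10 and 13 clonotypes from IGHV14-1 to IGHV14-4. Outside the family the shares were 8.52% and 2.84%, a ratio of 2.999 (2.53 to 3.56). IGHV3 stood at 11.8% in the iB and 2.92% in the B6 library, and IGHV14 over IGHV3 was 1.25 (0.839 to 1.86) in the iB library and 0.490 (0.128 to 1.87) in the B6 library.

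The V to D joint carried this pattern. No nucleotide stood between V and D in 67 of 272 iB members, 24.6%, and in 13 of 210 B6 members, 6.19%, against 16.1% and 11.5% of other clonotypes. IGHV14 thus lay above the others in the iB library, at a ratio of 1.53 (1.23 to 1.89), and below them in the B6 library, at 0.539 (0.317 to 0.917). The IGHV3 family was at 23.3% in the iB library, and the ratio of IGHV14 to it was 1.06 (0.802 to 1.40). In the B6 library IGHV3 was at 14.2%, with a ratio of 0.437 (0.237 to 0.806). For the V to D joint, the ratio of iB to B6 in IGHV14 over that outside was 2.83 (1.60 to 5.02). For joints with no insertion at all it was 3.43 (1.06 to 11.1), resting on 3 B6 clonotypes. Over clonotypes with at least 8 nucleotides of D, which kept fewer than those 3, it was 6.17. At the D to J joint IGHV14 and other clonotypes were close, with no nucleotide in 53.7% and 54.1% in the iB library and in 28.6% and 28.8% in the B6 library. Such comparisons of gaps were made for 8 measures after the values had been seen, and 3 of the intervals, all on V to D or total insertion, excluded no difference.

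The largest clonotype with a whole V end and no insertion in each library was chosen after values were seen. It shows the parts aligned to V, D and J laid end to end.
IGHV14-4, iB, 294 reads, IGHD1-1, IGHJ1: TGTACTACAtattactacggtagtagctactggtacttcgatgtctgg
IGHV14-1, B6, 151 reads, IGHD1-1, IGHJ4: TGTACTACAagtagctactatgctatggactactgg

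**Figure D5:**
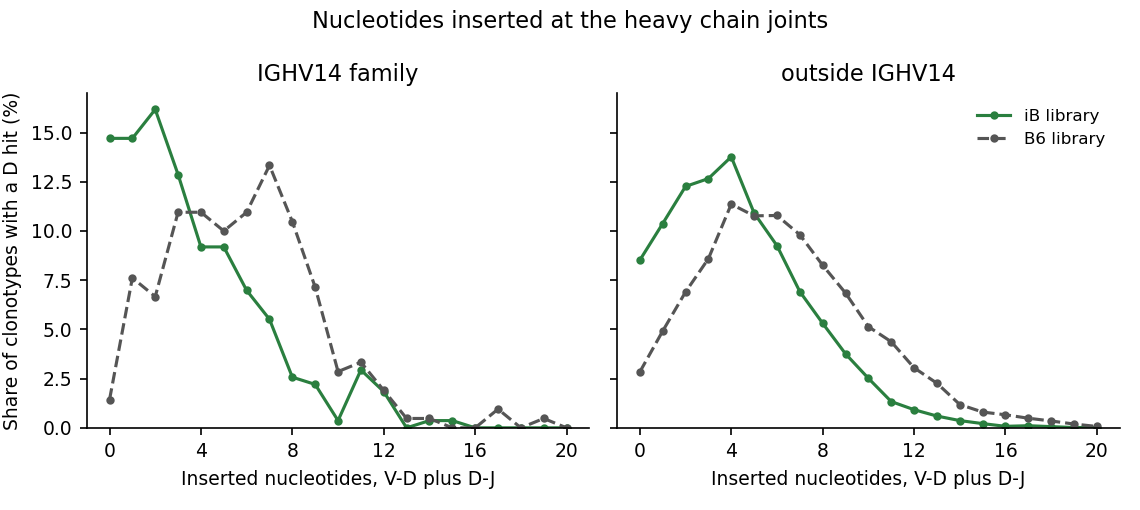
Share of clonotypes with a D hit (%) at each number of inserted nucleotides, V to D plus D to J, for IGHV14 clonotypes (left) and all others (right), in the iB library (green, solid) and the B6 library (grey, dashed), shown to 20 nucleotides. At 0 nucleotides IGHV14 stood at 14.7% in the iB and 1.43% in the B6 library, and other clonotypes at 8.52% and 2.84%.

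IGHV14 clonotypes used the D segment IGHD1-1 often. It was the D hit in 84 of 272 iB members, 30.9%, and in 80 of 210 B6 members, 38.1%, against 21.9% and 33.98% of other clonotypes. The ratio to others was 1.41 (1.18 to 1.70) in the iB library and 1.12 (0.940 to 1.34) in the B6 library. Against IGHV9 it was 1.36 (1.08 to 1.72) and 1.23 (0.978 to 1.56). Against IGHV3 it was 1.63 (1.24 to 2.14) and 1.16 (0.902 to 1.49). The IGHV8 family stood at 29.1% and 37.9%, so frequent IGHD1-1 use was not particular to IGHV14. Here too the germline ends divided the family, as IGHV14-1 and IGHV14-4 used IGHD1-1 in 38.6% and 46.7% of clonotypes and IGHV14-2 and IGHV14-3 in 26.3% and 29.5%. The ratio between the classes was 1.47 (1.03 to 2.08) in the iB library and 1.58 (1.10 to 2.26) in the B6 library. Some other shares were also compared between the classes. For joints with no insertion, no nucleotide between V and D, IGHD4-1 and a D hit, the interval of the class ratio included 1 in both libraries. By gene the division in IGHD1-1 use was uneven, since IGHV14-3 stood at 21.7% in the iB and 37.2% in the B6 library. No class ratio was taken for J use. In the B6 library IGHJ3 was found in 36 of 118 clonotypes of IGHV14-1 and IGHV14-4. For IGHV14-2 and IGHV14-3 it was found in 23 of 131. In the iB library these were 33 of 120 and 49 of 203.

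IGHD4-1, a short D segment, was used less than in the other clonotypes pooled. It was the D hit in 33 of 272 iB members, 12.1%, against 19.0% of others, a ratio of 0.638 (0.462 to 0.882), and in 15 of 210 B6 members, 7.14%, against 9.86%, a ratio of 0.724 (0.442 to 1.19). For IGHD4-1 the ratio of IGHV14 to IGHV9 was 0.673 (0.468 to 0.969) in the iB and 0.700 (0.393 to 1.25) in the B6 library. Against IGHV3 it was 0.756 (0.509 to 1.12) and 0.779 (0.415 to 1.46), and both intervals included 1. A D hit was found in 84.2% of iB and 84.3% of B6 members, against 87.2% and 87.8% of other clonotypes.

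J use was close to that of the repertoire apart from IGHJ1. In the iB library the family had IGHJ1 in 10.2%, IGHJ2 in 35.3%, IGHJ3 in 25.4% and IGHJ4 in 29.1% of clonotypes, and in the B6 library in 12.9%, 33.3%, 23.7% and 30.1%. IGHJ1 stood below its share among other clonotypes, with ratios of 0.709 (0.511 to 0.985) and 0.774 (0.557 to 1.07). All 16 pairs of an IGHV14 gene and a J gene were found in both libraries. Among IGHV14-3 clonotypes IGHJ3 was found in 30 of 99 in the iB library, 30.3% (22.1 to 40.0), and in 9 of 50 in the B6 library, 18.0% (9.77 to 30.8), with overlapping intervals.

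A stop codon within CDR3, which marks a joint that cannot encode a chain, was absent from the 323 iB members, which allows a share of up to 0.929%. It was present in 7 of 249 B6 members, 2.81% (1.37 to 5.69), against 0.709% and 2.19% of other clonotypes in the iB and B6 libraries. These 7 had 1 to 9 reads each, where the median B6 member had 202. Their lowest base quality in CDR3 ran from 21 to 38. Whether sequencing errors gave rise to these stop codons was not tested. Clonotypes of a single read made up 17 of 323 and 14 of 249 members.

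The libraries shared 2 IGHV14 clonotypes of the 34 IgH clonotypes with the same CDR3 nucleotides, V and J in both.
IGHV14-4, IGHJ3: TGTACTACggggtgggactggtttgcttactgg
IGHV14-3, IGHD1-1, IGHJ2: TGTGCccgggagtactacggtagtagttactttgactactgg
The first had 141 reads in the iB library and 1 in the B6 library. The second had 1 read in the iB library and 376 in the B6 library. Of the 34 shared IgH clonotypes, 26 had a single read in one library, as both IGHV14 clonotypes did. The lowest base quality in CDR3 was 23 and 35 for the single reads and 38 for their counterparts, and whether those reads came from the other library was not tested.

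Within a library, members rarely repeated a CDR3 protein sequence. The 323 iB members had 317 distinct amino acid sequences and the 249 B6 members 248.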

How the data were processed

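IgH libraries of 2 mice were used, and the light chain tables of the same mice were not used here. Per the study's methods, RNA was amplified by 5′ RACE, sequenced on a MiSeq and assembled by the authors with MiXCR into 1 table of clonotypes per library. The submitters' processing notes name mm10 and bcl2fastq. The deposited tables give for each clonotype a read count, not normalized, that count as a fraction of all reads, and the lowest base quality score in CDR3. The best V, D and J hits, V, D and J ends and CDR3 lengths were read from these tables with Python 3.11.15 and pandas 2.3.3. No molecular identifiers were counted, so a sequencing error can add a clonotype and depth can add rare ones.

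Shares had 95% Wilson intervals, ratios of shares 95% log-ratio intervals, and differences of means 95% normal intervals. The limit that a count of 0 allows was taken as 3 counts. Ratios were called past 1.5-fold, or 2-fold, among genes with at least 20 clonotypes. All named V genes, 105 of 105, matched RefSeq symbols. The ratio step was tested on simulated, independently drawn clonotypes without sequencing error or wrong V assignment, which checks the counting formula only. The named genes were all IGHV14 genes and the IGHV genes between them, with the 3 largest given values. IGHV9 and IGHV3 served for comparison, and the printed clonotypes were the largest, shortest, longest and shared ones. Members and lists were chosen with earlier results of these data known. The alternatives kept at least 2 or 5 reads, productive or unshared clonotypes, or unique best V hits; merged near-identical clonotypes, those 1 mismatch from one with at least 10 times the reads; drew equal read numbers; weighted by reads; required at least 8 nucleotides of D or a V score of at least 1000; or counted distinct CDR3 proteins.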

Additional observations from a re-analysis of the deposited data

How the results depend on the processing

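Over 30 results and 13 alternatives, 306 of 308 recomputed values stayed within the interval of the reported value or, for counts, within 1.5 times it. The count of all IGHV genes at least 1.5-fold lower in the iB library was 26 of 77 and became 44 of 105 with no minimum of clonotypes, since genes with few clonotypes then entered. Weighted by reads, the ratio of IGHV14 to other clonotypes for a shortened V end in the iB library was 1.54; the cause was not tested. The IGHV14-4 ratio lay on either side of 1, from 0.963 to 1.16, and no other result changed direction. The family ratio ran from 1.12 to 1.17, that of IGHV14-3 from 1.63 to 1.86 and that of IGHV14-1 from 0.703 to 0.819. The difference in inserted nucleotides ran from -2.36 to -2.17. The ratio of IGHV14 joints without insertion ran from 9.69 with near-identical clonotypes merged to 21.6 with at least 8 nucleotides of D. The value of 21.6 rested on fewer than the 3 B6 clonotypes of the main ratio. Between the classes of germline end, the ratio for a shortened V end ran from 1.41 to 1.52 in the iB and from 1.37 to 1.55 in the B6 library. The alternatives for the V end, the classes, the V to D joint and the comparisons of gaps on joints without insertion, and the V score of at least 1000, were added after the data were seen. The other comparisons of gaps, D and J shares apart from IGHD1-1 and IGHJ1, and shared clonotypes were not recomputed. No paired analysis was possible because each group had 1 library. The number of clonotypes limits the precision for single genes: 40 clonotypes of IGHV14-1 leave a ratio between 0.477 and 1.10.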
